A study of Homo sapiens with 3 samples.

Results

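The short arm of chromosome 5 was examined in the peak lists of 2 chromatin immunoprecipitation sequencing (ChIP-seq) libraries from HT1080 cells, an established human fibrosarcoma line: 1 made with a rabbit polyclonal antibody against XPB and 1 with a rabbit polyclonal antibody against XPD. No treatment or genotype separates the libraries, and an input DNA sample without enrichment came from the same pool of crosslinked chromatin and had no peak list among the files used here. The arm was chosen by its peak counts in these lists. Peaks were taken as lying on the short arm when their summit was below position 46000000 of the hg19 build, and on the long arm when it was above 50000000. This gave 503 of 21555 XPB peaks (2.33%) and 353 of 14570 XPD peaks (2.42%) for the short arm. The long arm held 759 XPB and 515 XPD peaks, and 2 XPB peaks lay between the arms.

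XPB and XPD are the helicase subunits of TFIIH, a complex used both in transcription and in DNA repair. At promoters of RNA polymerase II, XPB acts as a DNA translocase that helps to melt the start site, and in nucleotide excision repair XPD unwinds the DNA around a lesion. The end of the short arm is known for TERT, the catalytic subunit of telomerase, for SDHA, a subunit of succinate dehydrogenase, and for the Iroquois homeobox genes IRX4, IRX2 and IRX1. In the RefSeq gene table of GRCh38.p14, used for order only, the protein-coding genes inward from the arm's end include SDHA, AHRR, SLC9A3, BRD9, TRIP13, NKD2, SLC12A7, SLC6A19, SLC6A18, TERT, CLPTM1L, SLC6A3, LPCAT1 and IRX4. Farther in, ATPSCKMT, CCT5, CMBL, MARCHF6, ROPN1L, ANKRD33B, DAP and CTNND2 follow each other. No peak was placed at a gene, because no annotation or sequence of hg19 was used here.

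Peaks of both helicases were crowded into the outer part of the arm, above all into its first 2 Mb and the window from 10 to 11 Mb, and were sparse over its inner part. These windows were singled out because of their peak counts, so the counts describe them and test nothing. From 0 to 1 Mb there were 58 XPB and 46 XPD peaks, from 1 to 2 Mb 76 and 46, and from 10 to 11 Mb 66 and 42. Together these 3 Mb, 6.52% of the arm, held 200 XPB peaks (39.8% of those on the arm) and 134 XPD peaks (37.96%). The 5 windows of the arm next in rank by XPB were far lower: 33 XPB and 27 XPD peaks from 6 to 7 Mb, 28 and 27 from 14 to 15 Mb, 25 and 16 from 16 to 17 Mb, 23 and 16 from 2 to 3 Mb, and 20 and 12 from 17 to 18 Mb.

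In density, the first 2 Mb held 67 XPB peaks per Mb (95% exact Poisson interval 56.1 to 79.4), against 7.05 (6.28 to 7.89) over the rest of the short arm and 5.81 (5.402 to 6.24) on the long arm. For XPD the densities were 46 (37.1 to 56.4), 5.09 (4.44 to 5.81) and 3.94 (3.61 to 4.30). The window from 10 to 11 Mb held 66 XPB peaks (51.04 to 83.97) and 42 XPD peaks (30.3 to 56.8) per Mb. The first 2 Mb were thus 9.51 times as dense as the rest of the arm for XPB and 9.03 times for XPD, and the window from 10 to 11 Mb was 9.37 and 8.25 times as dense. All such intervals cover counting error only, since each antibody has 1 library and peaks are not replicates. When summits of a list within 10 kb of each other were counted once, the ratios fell to 4.44 for XPB and 5.94 for XPD in the first 2 Mb, and to 4.80 and 5.82 from 10 to 11 Mb.

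Set against the whole genome, these windows were near the top. Of 3007 windows of 1 Mb, the window from 1 to 2 Mb ranked 5 by XPB peaks, the window from 10 to 11 Mb ranked 6 and the window from 0 to 1 Mb ranked 11. By XPD peaks the first 2 windows tied at rank 9, and the window from 10 to 11 Mb ranked 14. All 3 windows reached 5 times the mean count of 7.17 XPB and 4.85 XPD peaks, which 2.46% of all windows did for XPB and 2.43% for XPD. The arm had 3 such XPB windows and 5 such XPD windows of 46; the other XPD windows were those from 6 to 7 Mb and from 14 to 15 Mb. On the long arm, 1 of 131 windows reached that level for XPB and 0 did for XPD. The first 2 Mb of chromosome 5 held the most peaks of the first 2 Mb of all 24 chromosomes in both lists: 134 XPB and 92 XPD peaks, ahead of 45 and 28 on chromosome 16 and of 44 and 25 on chromosome 19. Those of chromosomes 3, 13, 14, 15, 21, 22, X and Y held 0 peaks in both lists. Whether peaks could be called there was not examined.

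**Figure D1:**
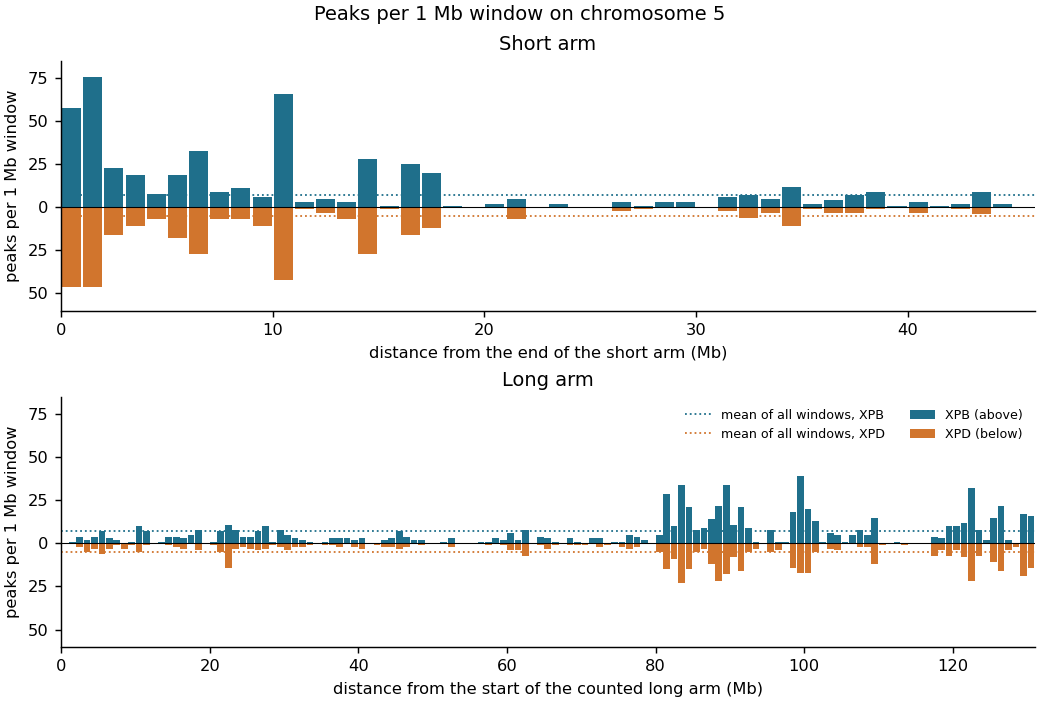
Peaks in each 1 Mb window of the short arm (top) and the long arm (bottom) of chromosome 5, with XPB counts drawn upward and XPD counts downward, and dotted lines at the mean of all windows of the genome. On the short arm the XPB bars reach 58, 76 and 66 in the 3 dense windows, while the highest on the long arm is 39.

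The rest of the arm was uneven as well. Between 0 and 18 Mb lay 413 XPB peaks (82.1% of the arm's) and 305 XPD peaks (86.4%), on 39.1% of the arm's length. From 18 to 46 Mb there were only 90 XPB and 48 XPD peaks, or 3.21 (2.58 to 3.95) and 1.71 (1.26 to 2.27) per Mb, below the long arm's 5.81 and 3.94. The division at 18 Mb was chosen after the counts were seen. Of the 46 windows, 6 held no XPB peak and 14 no XPD peak. The longest stretches without an XPB summit ran from 23569537 to 26146731 (2.58 Mb), from 18006474 to 20523803 (2.52 Mb) and from 29610669 to 31478524 (1.87 Mb), and none of these held an XPD summit either. XPD had longer ones, of 4.73 Mb from 21496427 to 26226435, 4.06 Mb from 27472352 to 31532174 and 3.63 Mb from 17847384 to 21479473.

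Over the whole arm the density was 10.9 XPB peaks per Mb (9.9999 to 11.9), against 5.81 on the long arm, and 7.67 XPD peaks per Mb (6.89 to 8.52), against 3.94. The ratio of short to long arm was 1.88 (exact conditional interval 1.68 to 2.11) for XPB and 1.95 (1.70 to 2.23) for XPD. Without the 3 dense windows the XPB ratio was 1.21 (1.06 to 1.39) and the XPD ratio 1.29 (1.10 to 1.52). Among XPB peaks scoring at least 300 the arms were closer, with a ratio of 1.27; among such XPD peaks the ratio was 2.32.

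The edges of the dense windows fell between summits well apart. The last XPB summit before 2 Mb was at 1899314 (12 fragments) and the next at 2040536 (9); for XPD they were at 1870488 (10) and 2003483 (9). At 10 Mb the XPB summits on either side were at 9972210 (14) and 10039400 (15), and the XPD summits at 9945380 (17) and 10074921 (13). At 11 Mb they were at 10895149 (11) and 11127626 (11) for XPB, and at 10950544 (16) and 11310820 (11) for XPD. The window from 9 to 10 Mb held 6 XPB and 11 XPD peaks and that from 11 to 12 Mb held 3 and 1. The innermost XPB summit of the arm was at 44936063 (9 fragments), with the next at 49594664 (11); the innermost XPD summit was at 43120862 (22), with the next at 52096018 (13).

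In bins of 100 kb, a single bin stood above all others of the genome in both lists. From 1200001 to 1300000 there were 22 XPB peaks (exact Poisson interval 13.8 to 33.3) and 20 XPD peaks (12.2 to 30.9), and 0 bins elsewhere had as many of either. XPB peaks covered 21.5 kb of it and XPD peaks 27.2 kb. Their summits were low, from 7 to 15 fragments with a median of 10 for XPB and from 10 to 20 with a median of 13 for XPD. Scores ran from 150.9 to 485.6 for XPB, with 2 of 22 at 300 or more, and from 152.8 to 478.6 for XPD, with 8 of 20. The score is -10 times the log10 of the peak caller's p-value and each list starts at 150.

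The peaks of this bin formed a chain. All 22 XPB summits lay between 1212123 and 1291865 with no gap over 10 kb, the longest such chain of the XPB list on chromosome 5, and 17 of the XPD summits formed another from 1226181 to 1286379. Of the 22 XPB peaks in the bin 14 overlapped an XPD peak, and of the 20 XPD peaks 13 overlapped an XPB peak. In the whole lists 26.6% of XPB and 38.7% of XPD peaks overlapped the other list. XPD peaks covered 27.2 kb and XPB peaks 21.5 kb of these 100 kb, and crowded peaks overlap more often by position alone. The part of crowding in these counts was not tested. At the 13 mutually best overlapping pairs the median distance between summits was 214 bp (2 to 497). The sites alternated with sites of a single list: the XPD peak from 1238946 to 1240281, with 20 fragments the tallest of the bin, had no XPB peak over it, and the XPB peak from 1273908 to 1274836 (13 fragments, score 293.9) had no XPD peak. This XPB peak was picked after its values were seen.

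The next bins in rank differed between the lists. For XPB the bin from 900001 to 1000000 came second with 15 peaks, of which 6 were shared, and it held 8 XPD peaks, of which 6 were shared. The bins from 10500001 to 10600000 and from 10600001 to 10700000 each held 11 XPB and 10 XPD peaks, with 3 peaks of each list shared in the outer bin and 4 in the inner one. A bin outside the dense windows, from 6700001 to 6800000, matched them for XPB with 11 peaks, 3 of them shared, and held 7 XPD peaks.

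In a pair of bins XPB peaks were many and XPD peaks few. From 1500001 to 1600000 there were 10 XPB peaks (interval 4.80 to 18.4) and 1 XPD peak (0.0253 to 5.57), and none of the 10 overlapped an XPD peak. From 10800001 to 10900000 there were 8 XPB peaks (3.45 to 15.8) and 0 XPD peaks. In this last bin the XPB summits were 8 to 20 fragments high with a best score of 224.2. These bins were selected for their difference, which is therefore a description. XPD peaks covered only 0.587 kb of the outer bin and 0 kb of the inner one. The lack of overlap there follows largely from the selection and is no further result. In the whole list 26.6% of XPB peaks overlapped an XPD peak.

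**Figure D2:**
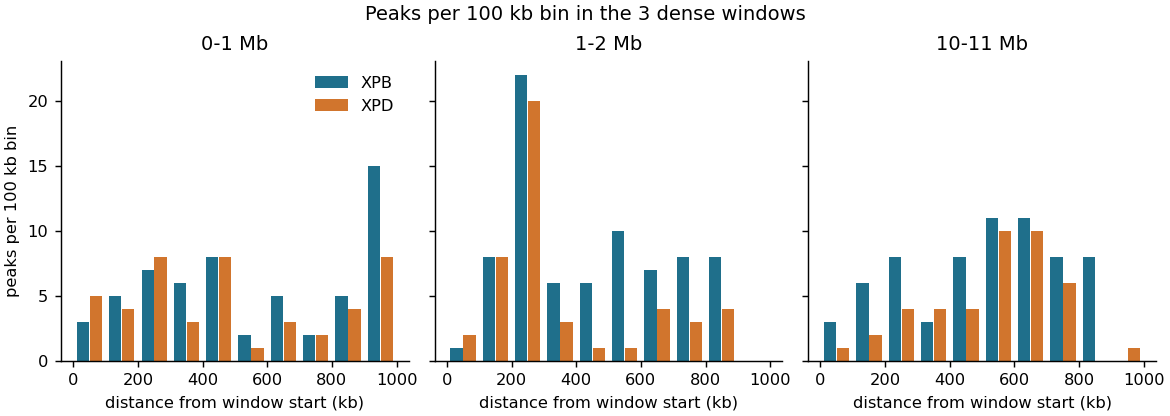
Peaks in each 100 kb bin of the windows 0 to 1, 1 to 2 and 10 to 11 Mb, XPB left and XPD right in each bin. The bin starting 200 kb into the 1 to 2 Mb window holds 22 XPB and 20 XPD peaks, and the last bin of that window holds 0 of either.

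Most 100 kb bins of the dense windows were occupied, while most bins elsewhere were empty. In the first 2 Mb 1 of 20 bins had no XPB peak and the median was 6; from 10 to 11 Mb 1 of 10 was empty and the median was 8. In the rest of the arm 277 of 430 bins (64.4%) had no XPB peak, and on the long arm 904 of 1307 (69.2%). For XPD 1 of 20, 1 of 10, 319 of 430 (74.2%) and 1005 of 1307 (76.9%) bins were empty. Another XPB summit was within 10 kb for 80.6% of XPB summits in the first 2 Mb (exact binomial interval 72.9 to 86.9) and 81.8% from 10 to 11 Mb (70.4 to 90.2), against 33.99% (28.7 to 39.6) in the rest of the arm, 34.3% (30.9 to 37.8) on the long arm and 41.8% of the whole list. For XPD the shares were 66.3% (55.7 to 75.8), 64.3% (48.0 to 78.4), 36.1% (29.7 to 42.8), 26.02% (22.3 to 30.04) and 34.5%. Summits of crowded windows lie closer by position alone, so these shares are not independent of the counts. How much of the spacing goes with density was not tested.

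The lists tracked each other along the arm. Across its 46 windows Spearman's rho between XPB and XPD counts was 0.91, and 0.90 over the 43 windows other than the dense ones; 6 windows were empty in both lists. On the long arm rho was 0.82 over 131 windows. Across the arm's 460 bins of 100 kb it was 0.66, where 254 bins were empty in both. These values describe libraries made from the same chromatin pool, and no test was applied. The number of XPB peaks per XPD peak was 1.42 (1.24 to 1.64) on the short arm, 1.47 (1.32 to 1.65) on the long arm and 1.48 in the whole lists. It was 1.46 (1.11 to 1.92) in the first 2 Mb, 1.57 (1.05 to 2.37) from 10 to 11 Mb and 1.88 (1.31 to 2.72) from 18 to 46 Mb. From 2 to 10 Mb it was 1.23 (0.943 to 1.61) and from 11 to 18 Mb 1.27 (0.910 to 1.77). These intervals overlap, and a difference in the ratio along the arm was not tested.

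The peaks in the first 2 Mb were lower and wider than those in the rest of the arm. The median XPB summit there was 11 fragments (interquartile range 9 to 13), against 12 (10 to 15) in the rest of the arm and 12 (10 to 14) on the long arm. The median XPD summit was 12 (11 to 15), against 14 (11.5 to 17) and 13 (11 to 15). From 10 to 11 Mb the medians were 12 for XPB (10 to 15) and 15 for XPD (13 to 16). The XPB median was also 11 from 2 to 10 Mb, from 18 to 46 Mb and in the whole list, and 14 from 11 to 18 Mb. The XPD medians were 13, 16, 13 and 15 in the same order. Heights are counts of overlapping fragments not scaled to depth, which is unknown here, and so are compared within a list only. Summits of at least 20 fragments made up 2.99% of XPB peaks (0.819 to 7.47) and 3.26% of XPD peaks (0.678 to 9.24) in the first 2 Mb, against 7.92% (5.14 to 11.6) and 14.6% (10.2 to 19.997) in the rest of the arm. In the whole lists 6.64% of XPB and 8.74% of XPD peaks were that high. Such summits were also scarce from 2 to 10 Mb, at 0.781% of XPB and 3.85% of XPD peaks. From 11 to 18 Mb they made up 17.6% and 16.4%, and from 18 to 46 Mb 8.89% and 35.4%.

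Width moved the other way. The median XPB width was 906 bp (interquartile range 728 to 1114) in the first 2 Mb and 1065 bp (823 to 1325) from 10 to 11 Mb, against 781 bp (617 to 976) in the rest of the arm and 800 bp (631 to 1031) on the long arm. XPD peaks measured 1127 bp (883 to 1396), 1046 bp (868 to 1282), 952 bp (709 to 1262) and 902 bp (712 to 1138). Peaks of 2000 bp or more numbered 12 for XPB and 11 for XPD on the short arm, 2.39% (1.24 to 4.13) and 3.12% (1.57 to 5.51), against 3 and 6 on the long arm, 0.395% (0.0816 to 1.15) and 1.17% (0.429 to 2.52). In the whole lists 1.18% of XPB and 2.27% of XPD peaks were that wide. Of the 12 broad XPB peaks 9 lay in the dense windows, as did 6 of the 11 broad XPD peaks.

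Median scores were somewhat higher in the first 2 Mb, with interquartile ranges that overlap. The median XPB score was 191.1 there (interquartile range 164.7 to 254.4), against 178.1 (160.4 to 213.5) in the rest of the arm and 188.5 (164.6 to 251.8) on the long arm. The median XPD score was 211.5 (173.1 to 275.0), against 182.4 (164.0 to 220.0) and 185.1 (164.8 to 226.4). In the window from 10 to 11 Mb the medians were 197.7 for XPB and 177.7 for XPD. Peaks scoring at least 300 made up 15.7% of XPB peaks (9.97 to 22.95) and 21.7% of XPD peaks (13.8 to 31.6) in the first 2 Mb, against 7.59% (4.87 to 11.2) and 8.68% (5.30 to 13.2) in the rest of the arm. Within that rest, the XPD share was as high from 18 to 46 Mb, at 22.9% (12.0 to 37.3), with 11.1% for XPB. It was 3.85% from 2 to 10 Mb and 5.97% from 11 to 18 Mb, with 5.47% and 7.06% for XPB. The long arm had 15.7% for XPB and 10.7% for XPD. The whole lists had 14.3% and 11.9%, so for XPB the first 2 Mb was near the genome's level and the rest of the arm below it. Of the arm's 53 XPB peaks at that score 30 lay in the dense windows, and of its 45 XPD peaks 26 did.

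**Figure D3:**
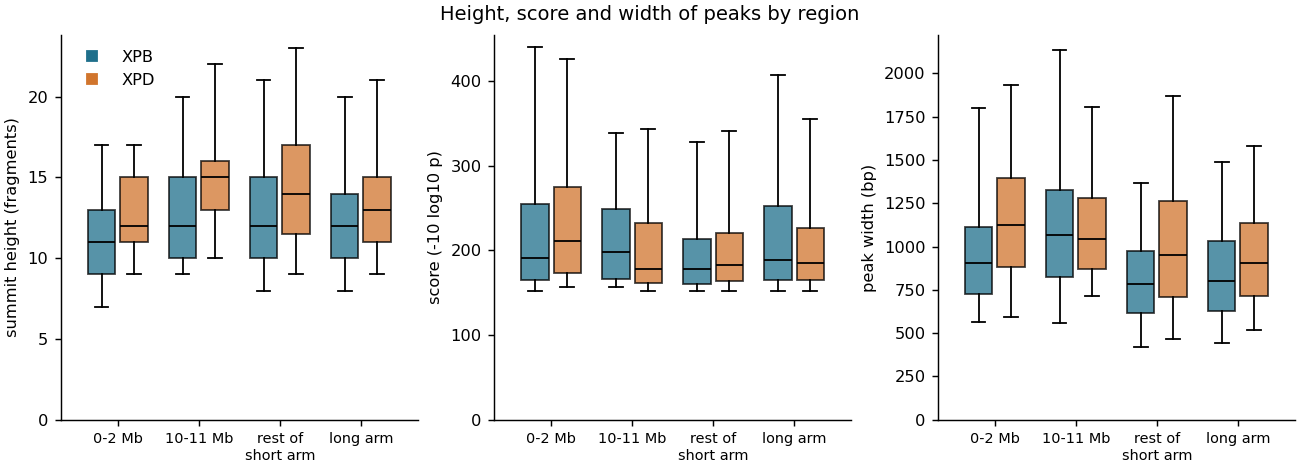
Summit height, score and width of XPB and XPD peaks in the first 2 Mb, from 10 to 11 Mb, in the rest of the short arm and on the long arm; boxes span the quartiles with a line at the median and whiskers reach the 5th and 95th percentiles. Heights in the first 2 Mb have medians of 11 and 12 fragments, and widths there have medians of 906 and 1127 bp.

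Among peaks just above the lists' lowest score, mean summit height was lowest in the first 2 Mb. At scores from 150 to below 170, XPB summits averaged 9.84 ± 2.46 fragments there (SD over 44 peaks), 12.5 ± 3.57 from 10 to 11 Mb (21 peaks), 11.6 ± 2.86 in the rest of the arm (122 peaks) and 10.7 ± 2.29 on the long arm (249 peaks). XPD summits averaged 11.9 ± 2.58 (22 peaks), 13.9 ± 3.90 (14 peaks), 13.7 ± 3.63 (80 peaks) and 12.7 ± 2.79 (169 peaks). In the stretch from 11 to 18 Mb they averaged 12.4 ± 3.28 for XPB (31 peaks) and 15 ± 3.43 for XPD (25 peaks). The means of the whole lists in this band were 10.6 ± 2.52 for XPB and 12.3 ± 2.95 for XPD. At scores from 170 to below 200 the order differed for XPB, with means of 11.4 ± 2.99 in the first 2 Mb (29 peaks), 12.3 ± 2.83 in the rest of the arm (84 peaks) and 11.1 ± 2.11 in its stretch from 18 to 46 Mb (24 peaks). The differences between these means were of the order of the SD within a region, so single peaks of the regions overlapped widely in height.

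Overlap between the lists was more frequent in the first 2 Mb than in the rest of the arm. There 51 of 134 XPB peaks overlapped an XPD peak by at least 1 bp (38.1%, exact binomial interval 29.8 to 46.8) and 51 of 92 XPD peaks overlapped an XPB peak (55.4%, 44.7 to 65.8). In the rest of the arm 68 of 303 XPB peaks (22.4%, 17.9 to 27.6) and 68 of 219 XPD peaks (31.1%, 24.99 to 37.6) did. Within that rest the XPD share was uneven. From 18 to 46 Mb 26 of 48 XPD peaks were shared (54.2%, 39.2 to 68.6), near the share of the first 2 Mb. From 2 to 10 Mb it was 21.2% (13.8 to 30.3) and from 11 to 18 Mb 29.9% (19.3 to 42.3). The XPB shares were 27.8%, 17.2% and 24.7% in the same order. The whole lists had 26.6% for XPB and 38.7% for XPD, and the long arm 25.6% (22.5 to 28.8) and 37.9% (33.7 to 42.2). In the window from 10 to 11 Mb, where the density was as high, the shares were 24.2% (14.5 to 36.4) and 38.1% (23.6 to 54.4), with 16 peaks of each list. Over the whole short arm 135 peaks of each list were shared, 26.8% (23.01 to 30.9) of XPB and 38.2% (33.2 to 43.5) of XPD, near the genome's level.

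Crowded peaks overlap more often by position alone, so the length covered by the other list is given beside these shares. XPD peaks covered 5.43% of the first 2 Mb and 4.90% of the window from 10 to 11 Mb, against 0.531% of the rest of the arm and 0.375% of the long arm. XPB peaks covered 6.84%, 7.55%, 0.588% and 0.5004%. From 18 to 46 Mb, where the XPD share was also high, XPB peaks covered 0.263%. Both dense stretches were covered about alike, while the overlap was lower from 10 to 11 Mb, with intervals that overlap those of the first 2 Mb. The part of crowding in the shares was not tested.

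Below a score of 300 the shares were higher in the first 2 Mb than in the rest of the arm in both lists, with intervals that overlap, and at 300 or more they were not. At scores from 150 to below 200, 30.1% of 73 XPB peaks in the first 2 Mb overlapped an XPD peak (19.9 to 42.0), against 17.0% of 206 (12.1 to 22.8) in the rest of the arm, 11.9% of 436 (9.04 to 15.3) on the long arm and 13.3% of the whole list at those scores. For XPD the shares were 43.6% of 39 (27.8 to 60.4), 24.3% of 136 (17.3 to 32.4), 26.8% of 321 (22.0 to 32.0) and 24.9%. Between 200 and 300, 16 of 40 XPB peaks in the first 2 Mb were shared (24.9 to 56.7%), against 15 of 74 in the rest of the arm (11.8 to 31.2%), 32.8% on the long arm and 29.7% of the whole list. For XPD these were 18 of 33 (36.4 to 71.9%), 19 of 64 (18.9 to 42.4%), 46.8% and 48.6%. Within that rest, the XPD shares from 18 to 46 Mb were near those of the first 2 Mb. They were 40.0% of 25 (21.1 to 61.3) below 200 and 6 of 12 between 200 and 300. From 10 to 11 Mb the XPD shares were 24.0% of 25 below 200 and 6 of 11 between 200 and 300. The XPB shares in these bands were 13.6% and 33.3% from 18 to 46 Mb, and 22.9% and 13.6% from 10 to 11 Mb. At scores of 300 or more, 13 of 21 XPB peaks (61.9%, 38.4 to 81.9) were shared in the first 2 Mb, against 18 of 23 (78.3%, 56.3 to 92.5) in the rest of the arm and 75 of 119 (63.0%) on the long arm. For XPD these were 16 of 20 (80.0%, 56.3 to 94.3), 16 of 19 (84.2%, 60.4 to 96.6) and 44 of 55 (80.0%). In the whole lists 73.2% of XPB and 87.1% of XPD peaks at that score were shared. From 18 to 46 Mb, all 10 XPB peaks and 10 of 11 XPD peaks at that score were shared.

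**Figure D4:**
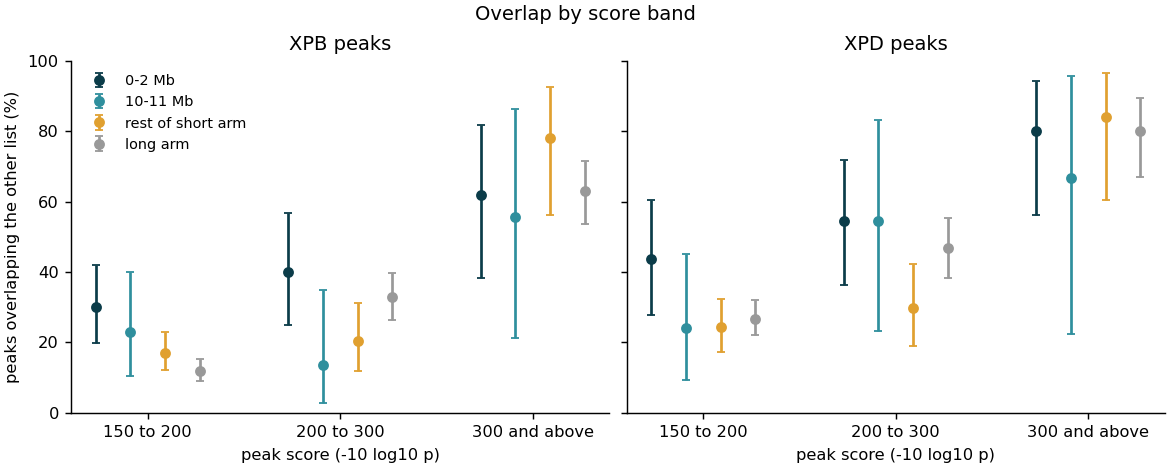
Percentage of XPB peaks (left) and XPD peaks (right) that overlap a peak of the other list, by score band, for the first 2 Mb, the window from 10 to 11 Mb, the rest of the short arm and the long arm; bars are exact 95% binomial intervals. In the lowest band the first 2 Mb lies highest in both lists, at 30.1% and 43.6%, and at scores of 300 or more the intervals overlap.

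Where the lists did overlap, the summits were farther apart on the short arm than on the long arm. Among 131 mutually best overlapping pairs of the short arm the median distance was 177 bp (interquartile range 45.5 to 360.5), against 63 bp (18.5 to 262) among 191 pairs of the long arm and 97.5 bp among all 5536 pairs. Summits lay within 100 bp at 40.5% of the short-arm pairs (32.0 to 49.4), against 56.0% (48.7 to 63.2) on the long arm and 50.7% genome-wide. Within 250 bp they were 58.0% (49.1 to 66.6), 74.3% (67.5 to 80.4) and 68.5%. Within the arm the median was 177 bp in the first 2 Mb (49 pairs), 83 bp from 10 to 11 Mb (16 pairs) and 233.5 bp in the rest of the arm (66 pairs). Pairs were made by largest overlap, so the paired summit was not always the nearest. At pairs 2718, 1855 and 1262 bp apart, another summit of the other list lay 19, 182 and 35 bp from a paired summit. How far this rule shaped the difference between the arms was not tested.

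The short arm also had the smaller share with wide or weak peaks left out, settings chosen after the data were seen. Among pairs in which both peaks were under 1500 bp, 64.4% of 90 on the short arm (53.7 to 74.3) and 79.9% of 154 on the long arm (72.7 to 85.9) had summits within 250 bp. Among pairs with both scores at 200 or more, 55.3% of 47 (40.1 to 69.8) and 76.1% of 92 (66.1 to 84.4) did. In both settings the intervals of the arms overlap. The libraries were selected for fragments of 400 to 700 bp, longer than most of these distances.

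**Figure D5:**
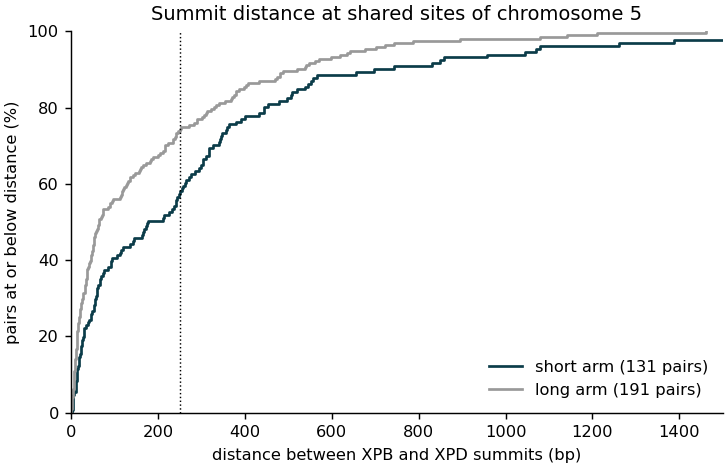
Cumulative percentage of mutually best overlapping XPB and XPD peak pairs against the distance between their summits, for the short and the long arm, with a dotted line at 250 bp; 1500 bp is the end of the axis. At the line the short arm stands at 58.0% of 131 pairs and the long arm at 74.3% of 191.

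At shared sites the height ratio was read only against the long arm and the genome, because depth is unknown. The median log2 ratio of XPB to XPD height, not scaled to depth, was -0.21 on the short arm (order-statistic interval -0.29 to -0.12), against -0.09 (-0.13 to 0.00) on the long arm and -0.11 genome-wide. Without the dense windows it was -0.12 (-0.28 to 0.00), and in the first 2 Mb -0.26 (-0.38 to -0.15). None of the 131 pairs departed more than 2-fold from the genome's median ratio, against 3 of 191 on the long arm and 2.01% of all pairs. Spearman's rho between the heights was 0.61 over the 131 pairs and 0.52 over the long arm's 191. Both summits reached 20 fragments at only 8 of the short-arm pairs. The 3 of these that departed most from the median ratio all lay from 18 to 46 Mb, as did 5 of all 8. The XPB peak from 34189445 to 34191101 reached 20 fragments and its XPD partner 29. The XPB peak from 40834832 to 40836346 reached 29 and its XPD partner 39, and the XPB peak from 34181964 to 34183198 reached 23 and its XPD partner 21.

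The strongest single site of the arm by score was a broad site in the window from 1 to 2 Mb, just outside the densest bin. The XPB peak from 1171462 to 1175093 scored 1237 over 3632 bp with a summit of 20 fragments, and the XPD peak from 1172420 to 1176006 scored 1146 over 3587 bp with 17 fragments. Their scores ranked 73 and 57 in the whole lists, while their summits lay 2718 bp apart; another XPD summit lay 19 bp from the XPB summit. A second site in the dense windows, from 912257 to 913833 for XPB (score 701.9, 15 fragments) and from 911707 to 913847 for XPD (704.4, 19), had summits 478 bp apart. An XPB peak from 1167403 to 1169004 scored 628.1 with 19 fragments, and its XPD partner scored only 157.3 with 13.

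Outside the dense windows the highest scores lay far in. The site at 40834832 to 40836346 scored 1018 for XPB with 29 fragments and 772.8 for XPD with 39, with summits 114 bp apart. At 34189445 to 34191101 XPB scored 741.7 with 20 fragments, and the XPD peak from 34189432 to 34190542 scored 388.8 with 29. Next to it the XPD peak from 34191221 to 34193914 scored 674.1 over 2694 bp with 18 fragments. The widest peak of the arm was an XPD peak of 5965 bp from 14036515 to 14042479, with a score of 612.2 and 18 fragments; an XPB summit lay 35 bp from its own. Its XPB partner by overlap, from 14038214 to 14039190, scored 597.2 over 977 bp with 29 fragments.

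The highest summits of the arm had 33 fragments for XPB and 40 for XPD. On the long arm the highest, 405 and 283, were at the same site, from 71146718 to 71147002 in the XPB list, and the next had 59 for XPB and 49 for XPD. The 90th percentiles of height were close, at 17 fragments on the short arm and 18 on the long arm for XPB, and at 20 and 19 for XPD. The tallest XPB summits were the peaks from 14268420 to 14269404 (33 fragments), from 17517625 to 17518115 (31) and from 17118702 to 17119354 (31), none with an XPD peak over it, then the shared peaks at 40834832 and 14038214 (29 each). Among XPD summits the tallest lay from 21479140 to 21479700, with 40 fragments, a score of 208.3 and no XPB peak over it, although an XPB summit was 2421 bp away. It was followed by the shared peaks at 40834859 (39), at 8457269 (31, with 17 for XPB), at 34189432 (29) and at 10550966 (28, with 18 for XPB). The tallest XPB summits thus lay outside the dense windows, and so did 4 of these 5 XPD summits. Of all peaks on the arm, 60.2% of XPB and 62.0% of XPD peaks lay outside these windows.

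The tallest summits of the dense windows are given for each list on its own. From 0 to 1 Mb the tallest XPB peak was from 11861 to 12551, close to the end of the chromosome, with 23 fragments and a score of 411.2, and its XPD partner had 16; the next were from 310799 to 311576 (17, no partner) and from 271257 to 271775 (17 for both proteins). The tallest XPD peaks were from 456614 to 458323 (20, with 10 for XPB), from 911707 to 913847 (19) and from 948077 to 949853 (17, with 10 for XPB). From 1 to 2 Mb the XPB peaks were from 1469721 to 1470782 (22, no partner), from 1171462 to 1175093 (20) and from 1792680 to 1793857 (20 for both). The XPD peaks were those at 1238946 (20, no partner) and 1792676 (20), and one from 1278034 to 1279471 (19, with 13 for XPB). From 10 to 11 Mb the XPB peaks were from 10250203 to 10250789 (24, with 13 for XPD), from 10759923 to 10760572 (23, no partner) and from 10701688 to 10702664 (23 for both). The XPD peaks were at 10550966 (28), from 10724607 to 10725829 (26, no partner) and at 10701920 (23). At 10250203 and 10701688 the summits of the helicases were 4 and 10 bp apart.

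The highest-scoring XPB peaks without an XPD partner all lay in the dense windows. They ran from 281376 to 284576 (score 553.2 over 3201 bp, 14 fragments), from 1469721 to 1470782 (440.3, 22), from 1182035 to 1183848 (439.5, 10), from 10709308 to 10711839 (431.2, 15) and from 10454696 to 10457676 (429.5 over 2981 bp, 10). In 4 of these 5 the summit was only 10 to 15 fragments high. Of XPB peaks scoring at least 300, 18 of 30 in the dense windows (40.6 to 77.3%) and 18 of 23 in the rest of the arm (56.3 to 92.5%) were shared. These intervals overlap. On the long arm 75 of 119 such peaks were shared, and in the whole list 73.2%. Most unshared XPB peaks of the arm at that score lay in the dense windows, but so did 30 of its 53 XPB peaks at that score. A difference in sharing between the regions was not tested. The XPD peaks without an XPB partner were spread more widely: from 880493 to 882324 (446.4, 16 fragments), from 43120495 to 43121745 (406.5, 22), from 9943790 to 9945736 (400.6, 17), from 10330053 to 10331848 (344.0, 22) and from 10581876 to 10583250 (330.7, 14). With 1 library per antibody, none of these single-list peaks has a replicate check.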

How the data were processed

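ChIP-seq libraries of XPB and XPD were compared in HT1080 cells. The submitters' processing notes name Bowtie 0.12.7, MACS 1.4 and hg19, and each ChIP has its own list. Caller settings, read totals and use of the input are not given in the sources used here. Columns were read by the layout that MACS normally writes. In it, the deposited score of a peak (150 to 3100) equals -10 multiplied by log10 of its p-value, while the signal deposited for each summit is its fragment pileup height, not scaled to depth. The shared protocol text names an antibody against CSB; each sample's own antibody field was followed. Groups come from the sample titles.

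Peaks were assigned by summit to windows of 1 Mb, counted from the chromosome start between the first and last summit, and to bins of 100 kb. Coordinates are 1-based. Shared peaks overlap by at least 1 bp, and pairs are each other's largest overlap. Intervals are exact Poisson, Clopper-Pearson or order-statistic at 95%; PCR copies are not independent molecules, so they cover counting error only. No test was made. The overlap functions were tested on simulated lists. The arm, windows and peak rule were chosen with earlier results of these data known. Peaks are named by rank on the arm or in a window: tallest summits, highest scores without a partner, widest, and those at boundaries; the 5 highest scores of each list were added after the data were seen. Alternatives varied the overlap rule, score minimum, list length and peaks used. Python 3.11.15, numpy 2.4.6, pandas 2.3.3, scipy 1.17.1 and matplotlib 3.10.9 were used.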

Additional observations from a re-analysis of the deposited data

How the results depend on the processing

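No paired analysis was possible because each antibody has 1 library and no test was made. Of 64 alternatives, 33 fell inside the counting interval of the value in the report and 31 fell outside. Where a ratio or log2 ratio had a direction, 0 alternatives reversed it. The shares have no direction, and the XPB height ratio of 1 from 10 to 11 Mb had none, so these could not reverse. The density of the first 2 Mb over the rest of the arm, for XPB and XPD, was 13.5 and 13.7 at scores of at least 200, 19.6 and 22.6 at scores of at least 300, and 4.44 and 5.94 with clusters within 10 kb counted once. From 10 to 11 Mb it was 13.7 for XPB at scores of at least 200, 16.8 and 13.6 at scores of at least 300, and 4.80 for XPB with clusters counted once. The short arm over the long arm was 1.66 and 2.24 at scores of at least 200, 1.27 and 2.32 at scores of at least 300, and 1.49 and 1.55 with clusters counted once.

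The share overlapping the other list in the first 2 Mb was 22.4% for XPB and 32.6% for XPD with summits within 250 bp, 47.5% for XPB at scores of at least 200, 43.5% for XPD with a reciprocal overlap of 50%, and 41.3% for XPD with lists of the same length. From 10 to 11 Mb it was 58.8% for XPD at scores of at least 200. In the rest of the arm it was 17.8% for XPB and 24.7% for XPD when each peak had to cover 50% of the other, 12.9% and 17.8% by summits within 250 bp, 34.02% and 42.2% at scores of at least 200, and 27.8% and 22.8% with lists of the same length. The median log2 height ratio was -0.027 where both summits reached 20 fragments. The cause of these moves was not tested, other than that a stricter overlap rule can only lower a share. Read depth is unknown and scores under 150 are not listed, so a missing peak does not show missing binding.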
